A study of Mus musculus with 2 samples.

Results

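The miR-23, miR-27 and miR-24 clusters are a pair of paralogous miRNA loci in the mouse, and 6 of the 1973 miRNA genes with counts belong to them here. On chromosome 8 these are Mir23a, Mir27a and Mir24-2, and on chromosome 13 they are Mir23b, Mir27b and Mir3074-1, a gene on the strand opposite Mir24-1. They were chosen by gene identity through the Ensembl identifiers, not by their levels. Small RNA of size range below 30, as labelled, was sequenced from whole intestine of 2 B6NCrl pups at postnatal day 0, called pup 2 and pup 1. Both pups came from the same pregnant female, each gave 1 library, the gut segment was not named and the sex was not collected. The series holds 1 group, without a treatment or mutant. The values therefore describe levels within each newborn gut and the difference between the libraries of the littermates.

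Each cluster is known to be transcribed as 1 primary RNA that holds a miR-23, a miR-27 and a miR-24 hairpin. The hairpins are cut out by Drosha and Dicer, and the mature strand guides Argonaute to messenger RNAs that pair with its seed, bases 2 to 8. In mice and humans, miR-23 and miR-27 are known as miRNAs of endothelium and angiogenesis, miR-27 also as a regulator of lipid metabolism and fat cell formation, and miR-24 as a regulator of the cell cycle.

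The mature sequences are shown first because the counts can be read only with them. All 6 members had a hairpin in the RefSeq table for GRCm38.p6, from which the sequences come, written 5′ to 3′ with the seed in capitals. The main products of the miR-23 and miR-27 hairpins come from their 3′ arms. The RefSeq table has no mature entry named miR-23b-3p, so the 3′ product of Mir23b is not shown. How it differs from miR-23a-3p was therefore not compared.
miR-23a-3p: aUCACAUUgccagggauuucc
miR-27a-3p: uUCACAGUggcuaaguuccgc
miR-27b-3p: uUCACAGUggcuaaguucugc
miR-27a-3p and miR-27b-3p share a seed and their first 18 bases, and differ over their 21 bases by C19U alone, counted from the 5′ end of miR-27a-3p. The hairpins of Mir27a and Mir27b share a run of 20 bases, as do those of Mir23a and Mir23b. A read that lies wholly inside such a run maps to both loci.

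The miR-24 loci differ from these, because their 3′ product is the same from both.
miR-24-3p: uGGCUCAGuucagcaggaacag
miR-24-1-5p: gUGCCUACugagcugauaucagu
miR-24-2-5p: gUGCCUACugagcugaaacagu
miR-3074-5p: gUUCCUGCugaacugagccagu
The whole of miR-24-3p occurs in 2 hairpins, Mir24-1 and Mir24-2, which share a run of 28 bases. The 5′ products share their seed and their first 16 bases and then part, so a 5′ read that runs past these bases can be placed at its locus. Mir3074-1 and Mir3074-2 lie on the opposite strands of Mir24-1 and Mir24-2, share a run of 30 bases, and both give miR-3074-5p. On chromosomes 13 and 8 alike, miR-3074-5p overlaps miR-24-3p by 20 bases on the other strand. Reads with several mapping places made up 30.0% ± 0.382 of each library (SD, n = 2) and entered no gene's count. Counts of Mir24-2 and of both strands of Mir3074-1 are therefore lower limits that leave out any read lying inside the shared stretch, and those of the miR-23 and miR-27 genes leave out their shorter ambiguous reads. How many reads each gene lost was not tested.

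On GRCm38, the assembly named mm10 by the authors, Mir23a lies on the plus strand of chr8:84208518-84208592 (ENSMUSG00000065611), Mir27a at chr8:84208672-84208758 (ENSMUSG00000065444) and Mir24-2 at chr8:84208815-84208921 (ENSMUSG00000065541). Mir23a and Mir27a overlap no other annotated gene, and the last 2 bases of Mir24-2 overlap an exon of the long noncoding RNA Gm26532. On chromosome 13, Mir23b lies on the plus strand at chr13:63300484-63300557 (ENSMUSG00000065599) in an intron of the protein-coding gene 2010111I01Rik. Mir27b at chr13:63300712-63300784 (ENSMUSG00000065475) overlaps an exon of at least 1 annotated transcript of that gene. Mir3074-1 lies on the minus strand at chr13:63301199-63301283 (ENSMUSG00000092741), faces Mir24-1 at chr13:63301208-63301275, and sits in an intron of Fancc, a DNA repair gene of the minus strand. The chromosome 8 hairpins start within 297 bp of each other, and the chromosome 13 hairpins spread over more, with Mir24-1 starting 724 bp after Mir23b. No row of counts carries the GENCODE M21 identifier of Mir24-1 or Mir3074-2. A row under an older identifier cannot be told, but the 79 rows that matched no M21 identifier held 0 counts in all. Opposite-strand reads of the Mir3074-1 row are reads on the strand of Mir24-1.

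**Figure D1:**
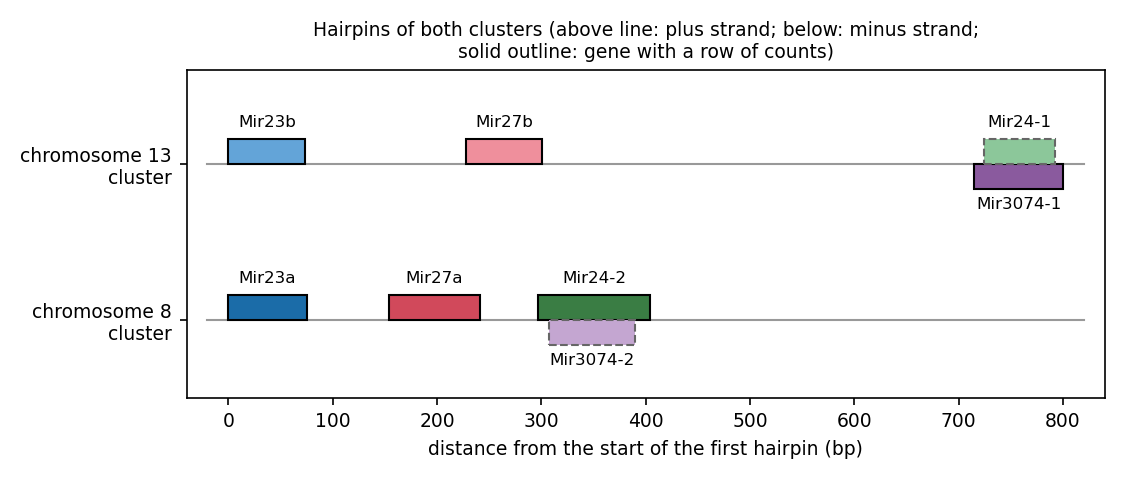
Hairpins of the chromosome 13 cluster (upper line) and the chromosome 8 cluster (lower line), drawn to scale as distance in bp from the start of the first hairpin, with plus-strand genes above each line and minus-strand genes below. Solid outlines mark genes with a row of counts and dashed outlines the facing genes Mir24-1 and Mir3074-2, for which no row was matched. The third hairpin starts 297 bp after Mir23a in the chromosome 8 cluster, and Mir24-1 starts 724 bp after Mir23b.

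Sequencing gave 8373497 reads for pup 2, with 4683939 on the annotated strand of miRNA genes, and 6375694 for pup 1, with 3567658 there. A level in CPM is a gene's count per 1000000 of these annotated-strand reads. All 6 members passed the minimum of 10 counts in each library, which 314 of 1973 genes did. All 8 miRNAs of a gut epithelium list (Mir192, Mir215 and miR-200 family genes among them) were detected, with a summed 320495 CPM in pup 2 and 276316 CPM in pup 1. Detection does not by itself check the intestine label. Every miRNA of the smooth muscle, endothelium, erythroid, neural and liver lists used below was detected too. The liver miRNA Mir122 had 12.4 CPM in pup 2 and 28.9 CPM in pup 1. The 95% intervals printed below are computed from read counts alone, so they cover at most the error of counting. No molecular identifiers are given and reads need not be separate molecules, so the intervals can be too narrow even for that error. Every ± is the SD over 2 pups.

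The miR-23 genes held most of the countable reads of these clusters. Mir23b, the miR-23 gene of chromosome 13, had 64809 counts in pup 2 and 52915 in pup 1, or 13836 CPM (13730 to 13943, exact Poisson) and 14832 CPM (14706 to 14959). That gave 14334 ± 704 CPM (n = 2) and place 17 of all genes in each pup. Mir23a, its paralog on chromosome 8, had 38432 counts in pup 2 and 34631 in pup 1, or 8205 CPM and 9707 CPM. It averaged 8956 ± 1062 CPM (n = 2) and stood at place 24 in each pup. The Mir23b values did not overlap those of Mir23a, and Mir23b was the higher in each pup. Together the miR-23 genes took 88.7% of the 6 members' counts in pup 2 and 88.0% in pup 1.

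The miR-27 genes were lower, and the chromosome 8 copy was far below the chromosome 13 copy. Mir27b had 10551 counts in pup 2 and 9518 in pup 1, or 2253 CPM and 2668 CPM, a mean of 2460 ± 294 CPM (n = 2). Mir27a had 1433 counts in pup 2 and 1436 in pup 1, or 306 CPM (290 to 322, exact Poisson) and 403 CPM (382 to 424). Its mean was 354 ± 68.3 CPM (n = 2). The ranges of these genes did not overlap. Mir27b stood at place 50 and Mir27a at place 118 of the 314 detected genes by mean level. The miR-27 genes took 10.3% of the members' counts in pup 2 and 11.0% in pup 1.

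Few countable reads came from the miR-24 loci. Mir24-2 had 1077 counts in pup 2 and 837 in pup 1, or 230 CPM and 235 CPM, a mean of 232 ± 3.30 CPM (n = 2), the smallest SD relative to its mean among the members. The Mir3074-1 row was split between its strands. On its own strand it had 148 counts in pup 2 and 104 in pup 1, or 31.6 CPM (26.7 to 37.1, exact Poisson) and 29.2 CPM (23.8 to 35.3), with a mean of 30.4 ± 1.73 CPM (n = 2). On the opposite strand, that of Mir24-1, it had 148 counts in pup 2 and 125 in pup 1, or 31.6 CPM and 35.0 CPM, a mean of 33.3 ± 2.43 CPM (n = 2). The strands overlapped in level, and their intervals overlapped in each pup. The files do not record which arm of a hairpin a count came from.

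**Figure D2:**
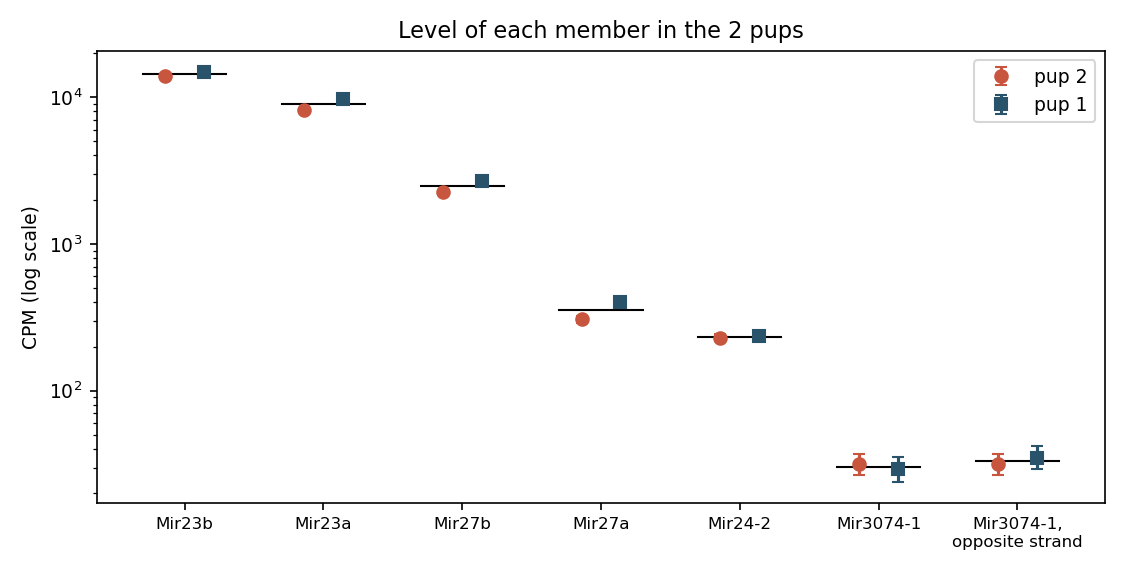
CPM of each member on a log axis, with pup 2 as circles and pup 1 as squares, 95% exact Poisson intervals as bars (mostly smaller than the symbols) and the mean of 2 pups as a line; the rightmost column holds the opposite-strand reads of the Mir3074-1 row. The means run from 14334 CPM for Mir23b down to 30.4 CPM for Mir3074-1, and Mir23b, Mir23a, Mir27b, Mir27a and Mir24-2 keep that order in each pup.

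Opposite-strand reads set Mir3074-1 apart from the other members. Its opposite strand took 50.0% of the row's reads in pup 2 (44.2% to 55.8%, exact Clopper-Pearson) and 54.6% in pup 1 (47.9% to 61.2%). Over all miRNA genes that share was 3.33% in pup 2 and 3.42% in pup 1. Mir23a, Mir27a, Mir23b and Mir27b had 0 opposite-strand reads in each library, which allows up to 3 counts or 0.640 CPM in pup 2 and 0.841 CPM in pup 1, and Mir24-2 had 1 in pup 2 and 0 in pup 1. Of 324 genes with at least 10 counts on either strand in each library, 14 (4.32%) had at least 10 on the opposite strand in each, and 4 of these, Mir3074-1 among them, reached 10 on both strands.

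In the order of all detected genes, most members had ranges that overlapped those of both neighbours. The Mir23a range overlapped that of Mir10b just below it (8771 ± 1939 CPM), but not that of Mir130a just above (11078 ± 98.9 CPM). Mir23b did not overlap Mir335 above it (15108 ± 211 CPM) or Mir30e below it (11881 ± 2345 CPM), although Mir30e in pup 2, at 13539 CPM, came close to Mir23b there. For Mir27b the neighbours were Mir100 (2527 ± 339 CPM) and Mir487b (2338 ± 109 CPM), and for Mir27a they were Mir186 (358 ± 42.9 CPM) and Mir674 (354 ± 0.924 CPM), all with overlapping ranges. Mir24-2 lay between Mir615 (234 ± 8.93 CPM) and Mir363 (229 ± 8.09 CPM), and Mir3074-1 between Mir129-1 (30.9 ± 5.06 CPM) and Mir877 (29.7 ± 3.92 CPM), with overlapping ranges. Of the neighbours with overlapping ranges, only Mir100, above Mir27b, and Mir363, below Mir24-2, kept their order in each pup. In pup 1 Mir24-2 had 234.6 CPM and Mir363 had 234.3 CPM. With 2 samples no likeness of pattern could be measured, so neighbours are by level only.

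**Figure D3:**
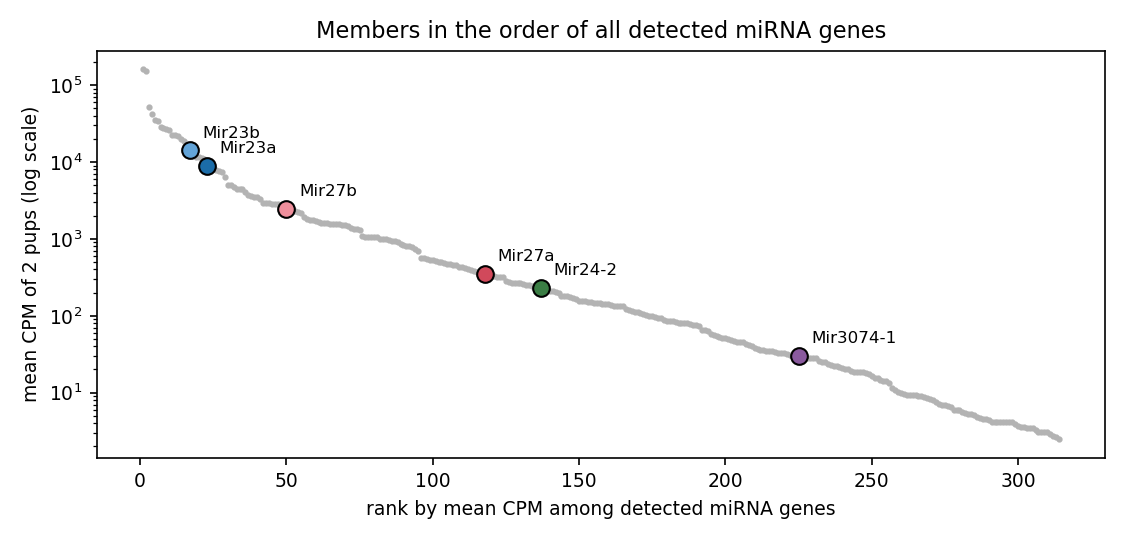
Mean CPM of 2 pups on a log axis for the 314 detected miRNA genes in order of level, grey, with the 6 members as coloured, labelled circles. Mir23b and Mir23a lie among the highest genes, at places 17 and 23 by mean level, and Mir3074-1 lies at place 225.

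Within each cluster, the miR-23 gene held more counts than the miR-27 gene in each pup. Mir23a exceeded Mir27a 26.8-fold in pup 2 (25.4 to 28.3, exact binomial) and 24.1-fold in pup 1 (22.9 to 25.4), a log2 ratio of 4.67 ± 0.11 (n = 2). Mir23a also exceeded Mir24-2, 35.7-fold in pup 2 and 41.4-fold in pup 1 (log2 ratio 5.26 ± 0.15). Mir23b exceeded Mir27b less, 6.14-fold in pup 2 (6.02 to 6.27) and 5.56-fold in pup 1 (5.44 to 5.68), a log2 ratio of 2.55 ± 0.10. The miR-23 over miR-27 ratios of the clusters did not overlap. Mir27a was only 1.33-fold above Mir24-2 in pup 2 and 1.72-fold in pup 1 (log2 ratio 0.60 ± 0.26). Since reads of the shared miR-24-3p were not counted, the ratios over Mir24-2 do not measure how much miR-24 this cluster made. Per base of the annotated hairpin, the log2 ratio was 4.88 for Mir23a over Mir27a and 0.89 for Mir27a over Mir24-2. A small RNA read spans a mature miRNA whatever the length of its hairpin, so the undivided ratio is given first.

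On chromosome 13 the third hairpin was the lowest by far in countable reads. Mir23b exceeded the opposite strand of Mir3074-1 438-fold in pup 2 (373 to 518, exact binomial) and 423-fold in pup 1 (355 to 509), a log2 ratio of 8.75 ± 0.03. Mir27b exceeded it 71.3-fold in pup 2 and 76.1-fold in pup 1 (log2 ratio 6.20 ± 0.07). Since reads of the shared miR-24-3p were not counted, these ratios do not measure how much miR-24 the cluster made.

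Between paralogs, the chromosome 13 copy held more counts for miR-23 and miR-27. Mir23b exceeded Mir23a 1.69-fold in pup 2 (1.67 to 1.71, exact binomial) and 1.53-fold in pup 1 (1.51 to 1.55), a log2 ratio of 0.68 ± 0.10. Mir27b exceeded Mir27a 7.36-fold in pup 2 (6.97 to 7.79) and 6.63-fold in pup 1 (6.27 to 7.01), a log2 ratio of 2.80 ± 0.11. Mir27b held 88.0% of miR-27 counts in pup 2 and 86.9% in pup 1, and Mir23b 62.8% of miR-23 counts in pup 2 and 60.4% in pup 1. The intervals of the paralog ratios did not overlap between pups for miR-23, and the ratio was the larger in pup 2. Uniquely mapped reads on the opposite strand of Mir3074-1 were 0.137 of those of Mir24-2 in pup 2 and 0.149 in pup 1, a log2 ratio of -2.80 ± 0.08 that was -2.15 per base of the annotated genes. Both counts are lower limits, so they do not show which locus made more miR-24. For the share over both clusters, the opposite strand of Mir3074-1 was counted in place of its own strand. Chromosome 13 gave 64.8% of these counts in pup 2 and 62.9% in pup 1 (63.9% ± 1.38), with reads of the shared miR-24-3p left out.

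These ratios were set beside those of other neighbouring genes. Among 99 pairs of detected miRNA genes that follow each other on a strand within 10000 bp, the median size of the log2 ratio was 2.70, with quartiles at 1.25 and 4.45. Mir23a with Mir27a stood at place 24 of 99 from the most unequal, above the upper quartile. Mir23b with Mir27b stood at place 52 and Mir27a with Mir24-2 at place 87. Between the pups, the ratios moved by 0.15 on the log2 scale for Mir23a with Mir27a, 0.14 for Mir23b with Mir27b and 0.37 for Mir27a with Mir24-2, against a median of 0.18 over the 99 pairs. With 2 pups the smallest p an exact sign permutation can give is 0.5, so no test was made of these ratios. They hold any difference in capture and mapping between the sequences, which the spread between pups does not measure.

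**Figure D4:**
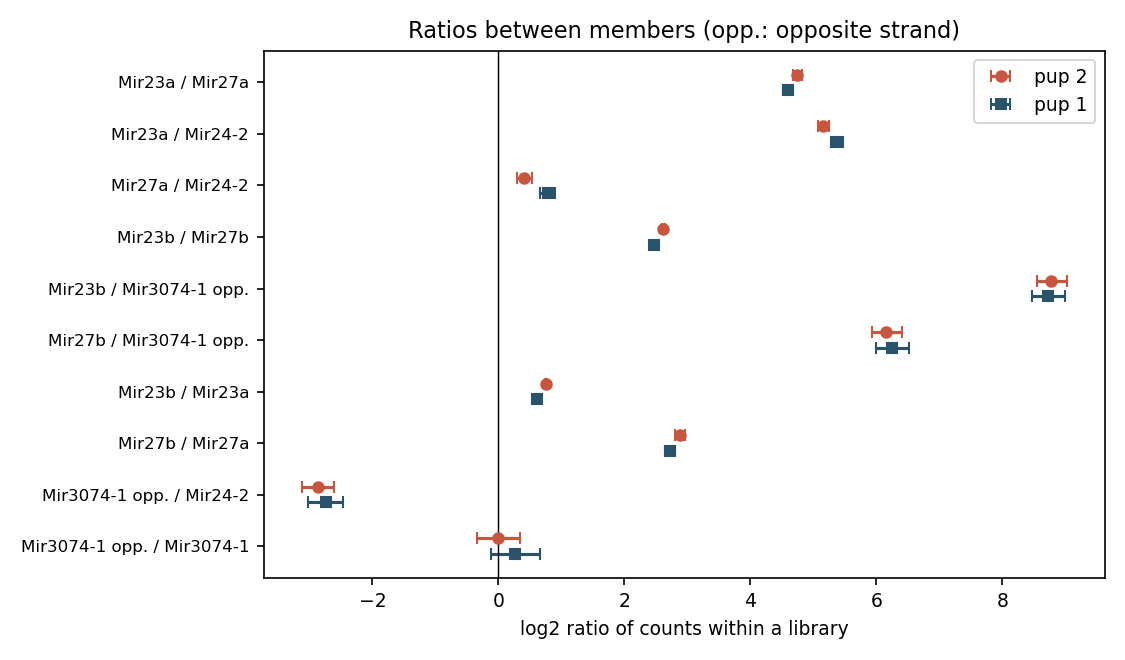
Log2 ratio of counts between members within each library, with pup 2 as circles, pup 1 as squares and 95% exact binomial counting intervals as bars; opp. stands for the opposite-strand reads of the Mir3074-1 row, and the vertical line marks equal counts. The ratio of Mir23a over Mir27a (4.67 on average) lies right of that of Mir23b over Mir27b (2.55), and the strands of Mir3074-1 lie near equality.

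Between the littermates, 4 of 6 members were lower in pup 2 than in pup 1 and 2 did not pass the test. Each gene's counts were set against the library sizes, scaled by edgeR's TMM method, in an exact binomial test (2-sided, Benjamini-Hochberg adjusted over 314 genes, threshold 0.05). The test compares 2 libraries and not conditions. Each pup gave 1 library, so a difference between the pups cannot be told apart from one in how the libraries were made. By it 41.1% of all tested genes differed, and 19.7% were lower in pup 2, so that differences of this kind were common. Mir27a was 1.28-fold lower in pup 2, with a log2 ratio, pup 2 over pup 1, of -0.35 (-0.46 to -0.25, adjusted p = 3.35e-10, exact binomial). Mir23a had -0.20 (-0.22 to -0.18, adjusted p = 2.07e-76, exact binomial) and Mir27b had -0.20 (-0.24 to -0.16, adjusted p = 5.52e-22, exact binomial). Mir23b had -0.06 (-0.07 to -0.04, adjusted p = 6.00e-11, exact binomial), a call that ended with upper-quartile scaling, at -0.02 (adjusted p = 0.128).

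The members that did not pass came from the miR-24 loci. Mir24-2 had a log2 ratio of 0.01 (-0.12 to 0.15, adjusted p = 0.925, exact binomial), and its sign turned with total-count scaling (-0.03). Mir3074-1 had 0.16 (-0.21 to 0.53, adjusted p = 0.607, exact binomial), an interval from 148 counts in pup 2 and 104 in pup 1 that includes the ratio seen for Mir23a. Its opposite strand had -0.11 (-0.46 to 0.25, adjusted p = 0.737, exact binomial). The median over the 6 members was -0.13, against 0.00 over all tested genes, and the median size of the ratio was 0.18 for both. In size, Mir27a stood at place 59, Mir27b at 137, Mir23a at 140, Mir3074-1 at 176, Mir23b at 247 and Mir24-2 at 291 of 314.

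**Figure D5:**
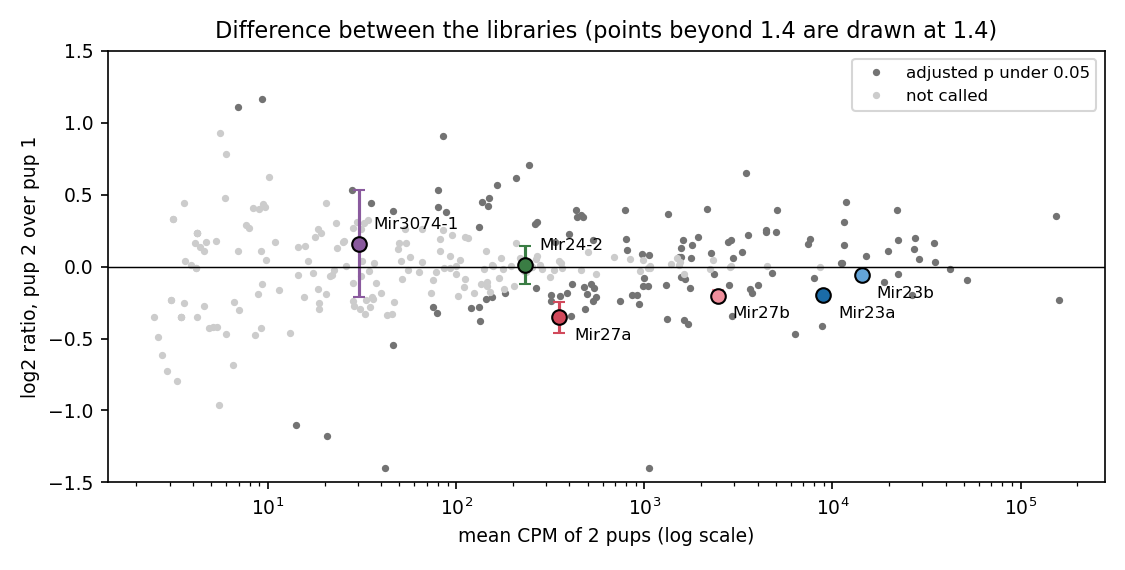
Log2 ratio, pup 2 over pup 1, against mean CPM on a log axis for the 314 tested genes (dark grey, adjusted p under 0.05; light grey, not called), with the 6 members coloured and their 95% exact binomial intervals as bars. Mir27a, Mir23a, Mir27b and Mir23b lie below 0 within the cloud of other genes, at -0.35, -0.20, -0.20 and -0.06, and the bars of Mir24-2 and Mir3074-1 cross 0.

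Marker miRNAs of several cell types moved between the pups as well. Of 8 gut epithelium miRNAs, all 8 were higher in pup 2. Of the smooth muscle pair Mir143 and Mir145a, 1 was lower in pup 2 and the other did not pass, and their sum was 150129 CPM in pup 2 and 181056 CPM in pup 1. Of the endothelium list Mir126a, Mir221 and Mir222, 1 was lower in pup 2 and 2 did not pass, with a sum of 50197 CPM in pup 2 and 55051 CPM in pup 1. Of 3 leukocyte miRNAs with a row, 2 were higher in pup 2, with a sum of 1366 CPM in pup 2 and 1130 CPM in pup 1. Of 2 erythroid miRNAs, 1 was higher in pup 2, with a sum of 146 CPM in pup 2 and 100.1 CPM in pup 1. Of 2 neural miRNAs, 1 was higher in pup 2, with a sum of 1190 CPM in pup 2 and 1189 CPM in pup 1. Liver Mir122 was lower in pup 2, and 0 of 3 tested striated muscle miRNAs passed. In whole gut, fewer cells of a type and less of a miRNA per cell cannot be told apart. The part of these markers in the differences of the members was not tested.

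The miR-24-3p and miR-27 seeds were looked up in the RefSeq table as they stand, and no search was made for shifted seeds. The miR-24-3p seed also occurs in mature miRNAs of Mir6413, Mir6410, Mir6369 and Mir5124b, each with 0 counts in both libraries. In the table, the miR-27 seed occurs in no mature miRNA but miR-27a-3p and miR-27b-3p. The miR-128 genes, whose seed is that of miR-27 moved by 1 base, are shown for that overlap.
miR-128-3p: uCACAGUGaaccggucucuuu
Mir128-1 had 236 counts in pup 2 and 170 in pup 1, a mean of 49.0 ± 1.93 CPM (n = 2), and Mir128-2 had 41 counts in pup 2 and 35 in pup 1, 9.28 ± 0.747 CPM. The whole of miR-128-3p occurs in 2 hairpins, so these counts too are lower limits. Neither passed the exact binomial test between the libraries (adjusted p = 0.610 and 0.870), and the intervals were wide. The log2 ratio, pup 2 over pup 1, was 0.12 (-0.17 to 0.42) for Mir128-1 and -0.12 (-0.81 to 0.57) for Mir128-2.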

How the data were processed

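MicroRNA sequencing measured 2 libraries, 1 per pup. The authors deposited raw read counts per miRNA gene, made against mm10 with GENCODE M4, per the accompanying file headers; the aligner and the counting program are not given in the sources used here. The deposited counts have 3 columns, which from their sums hold either strand, the annotated strand and the opposite strand. Reads in no gene stayed out of library sizes: 30.0% mapped to several places, 9.75% were unmapped and 2.32% fell outside miRNA genes. Identifiers, without version, were matched to GENCODE M21 on GRCm38, where 1894 of 1973 matched.

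CPM, intervals and ratios were computed here with scipy 1.17.1, and scaling with edgeR 4.0.16 and DESeq2 1.42.0 (R 4.3.3). One library per pup leaves no residual degrees of freedom, so an exact binomial test replaced a model. It was tried on simulated counts whose only random spread was Poisson counting error. That trial held no variation between pups, so it cannot show how the test behaves under such variation. Named genes are the members, their level neighbours, facing and host genes, seed relatives and markers; the genes that share the miR-24 seed were added after their values were seen. The members, lists and tests were chosen with earlier results of these data known, and the neighbouring pairs after the values were seen. Alternatives were other scalings, count minimums (1 and 100), strand ignored, all reads as the denominator, per-base ratios, a pseudocount of 0.5 and each pup alone.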

Additional observations from a re-analysis of the deposited data

How the results depend on the processing

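No paired analysis was possible because the series has 1 group. All 4 calls of members held with DESeq2 size factors, total counts, count minimums of 1 and 100 and strand ignored, and 3 of 4 with upper-quartile scaling, where Mir23b had a log2 ratio, pup 2 over pup 1, of -0.016 (adjusted p = 0.128, exact binomial). Mir24-2 turned to -0.029 with total counts (adjusted p = 0.781, exact binomial). The median log2 ratio of all genes lay between -0.04 and 0.04 over these scalings, so small ratios depend on scaling by construction. With all reads as the denominator, levels were 8020 CPM for Mir23b, 5011 for Mir23a, 1376 for Mir27b, 198 for Mir27a, 130 for Mir24-2 and 17.0 for Mir3074-1. With strand ignored, Mir24-2 had 225 CPM, over a larger total of counts, and Mir3074-1 had 61.5 CPM, with its opposite-strand reads included. Per base of the annotated genes, log2 ratios were 4.88 (Mir23a over Mir27a), 5.78 (Mir23a over Mir24-2), 0.89 (Mir27a over Mir24-2), 3.06 (Mir27b over Mir27a), and, for the opposite strand of Mir3074-1, 8.63 (Mir23b over it), 6.10 (Mir27b over it), -2.15 (over Mir24-2) and 0.45 (over Mir3074-1). A pseudocount of 0.5 moved no ratio by as much as its SD. Leaving out a pup leaves the other pup's value, given in the report, and tests nothing with 2 pups. The opposite strand of Mir3074-1 was tested as an alternative chosen after seeing the data. Depth limits Mir3074-1 most.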
